A study of Arabidopsis thaliana with 36 samples.

Results

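Cytosolic ribosomal protein genes of Arabidopsis thaliana were followed in shoots and roots of plants that had or lacked sulfated peptide hormones. The genes were taken from the count table by 1 rule: the gene description names a 40S or a 60S ribosomal protein. It selected 205 of 32833 genes, 95 of the small (40S) and 110 of the large (60S) subunit. A family name could be read for 200 of them, which fall into 75 families. Most families hold several paralogs, gene copies that encode the same ribosomal protein: 34 families had 2 listed members, 37 had 3 or more and 4 had 1. The descriptions of 3 genes (AT3G22300, AT5G47320 and AT2G28815) name the mitochondrion, so the rule took in genes that are not cytosolic; they were kept. The rule itself used no expression value, although members were chosen with earlier results of these data known. The acidic stalk proteins P0 to P3 have other descriptions and are not among them.

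All plants were 11 days old and grown in liquid MS medium of reduced strength with sucrose under long days. Each tissue had 6 groups of 3 independent biological replicates: untreated Col-0, the wild type; untreated tpst; and tpst given 10 nM phytosulfokine (PSK), a sulfated signal peptide, for 30 min, 2 h, 5 h or 11 days. The mutant is the T-DNA insertion line tpst-1 in the Col-0 background, which lacks the enzyme that sulfates PSK and other tyrosine-sulfated peptides. For the 30 min, 2 h and 5 h groups the medium was exchanged for fresh medium with PSK, whereas the 11 day group was germinated in PSK and the untreated groups had no exchange, so that for the short exposures PSK and fresh medium cannot be told apart. Each replicate was a pool of seedlings cut into shoot and root. The 4 PSK groups and Col-0 of a tissue are all compared with the same 3 untreated tpst libraries. In bulk tissue, fewer cells of a type and less RNA per cell cannot be told apart.

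The cytosolic ribosome of plants is built from rRNA and ribosomal proteins, most of which are encoded by several nuclear genes. The small subunit decodes mRNA, and the large subunit joins amino acids and carries the tunnel through which the new protein leaves. Ribosomal protein transcripts are abundant in growing tissue, and their synthesis is known to be coordinated with rRNA transcription, nutrient supply and the TOR kinase pathway.

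The libraries held 21559655 to 36921510 counts in genes. The TPST gene (AT1G08030) had 14.98 to 17.58 CPM (counts scaled to a common library size) in Col-0 shoots against 5.18 to 8.24 in all tpst shoots, and 27.55 to 29.08 against 11.4 to 16.64 in roots. Photosynthesis genes summed to 25910 to 48090 CPM in shoots and to 151.9 to 428.4 CPM in all root libraries but untreated tpst replicate 3, which had 1480. Root markers summed to 209.2 to 482.3 CPM in roots and to 2.539 to 15.11 CPM in shoots. Of the 205 genes, 4 had no count in any library, and 189 passed the filter on low counts in shoots, 191 in roots and 193 when both tissues were fitted together.

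Per length, the members spanned more than 3 orders of magnitude. RPS8A (AT5G20290), a 40S protein, led in both tissues with a mean of 1016 CPM per kilobase of gene length (CPM per kb) over the 18 shoot libraries and 1150 over the 18 root libraries. RPL19A (AT1G02780), a 60S protein, followed with 910.2 and 1065. At the other end, AT3G61111, annotated as S27, had 0.4677 in shoots, and AT1G29965, annotated as L18a, had 0.372 in roots. In shoots 93 of the 189 tested members had at least 300 CPM per kb in Col-0, and 16 had under 20.

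A trait of these genes that the rule did not use is a pair of short promoter words. Site II elements (TGGGCC or TGGGCT) and the telo box (AAACCCTA) are known from promoters of plant ribosomal protein genes and of other genes used by growing cells. Both words were searched on both strands of the 250 bases before the annotated start, in sequence credited to the TAIR10.1 reference. A site II match lay before 136 of the 205 members (66.3%), against 18.02% of 32518 nuclear genes with the same coordinates in both annotations. The telo box lay before 45 members (22.0%) against 4.61% of those genes. It was more frequent before 60S genes (28.2%) than before 40S genes (14.7%), while 58 members had neither word. Among genes tested in shoots, site II lay before 66.67% of 189 members and 21.87% of 20731 genes. The telo box lay there before 19.05% and 3.623%. The 306 site II matches had their median centre 55 bases before the start, and 274 of them lay in the nearer 125 bases.

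**Figure D1:**
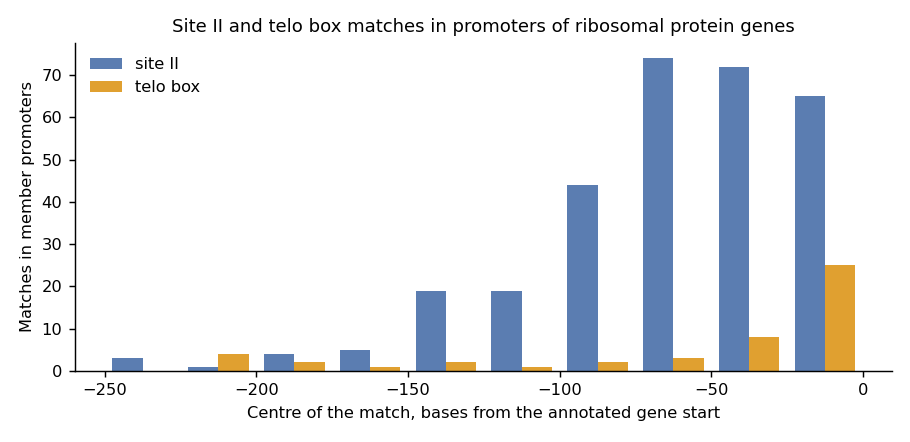
Histogram of the positions of site II (blue) and telo box (orange) matches in the 250 bases before the start of the 205 genes; the horizontal axis is the distance of the match centre from the annotated start in bases, the vertical axis the number of matches. Of 306 site II matches, 274 lie in the nearer 125 bases, as do 39 of 48 telo box matches.

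The promoters of 6 genes show these words and belong to genes described below. RPS9B (AT5G15200) and RPL37B (AT1G52300) are the 2 genes with the highest level in Col-0 among those with both words. The other 4 are a pair of S15a genes and a pair of S2 genes whose transcripts moved apart. Each sequence is the 250 bases before the start, 5′ to 3′ on the strand of the gene, which is the minus strand for all 6, with TAIR10.1 coordinates; capitals mark a site II or telo box match on either strand.
RPS9B, chr5:4936430-4936679: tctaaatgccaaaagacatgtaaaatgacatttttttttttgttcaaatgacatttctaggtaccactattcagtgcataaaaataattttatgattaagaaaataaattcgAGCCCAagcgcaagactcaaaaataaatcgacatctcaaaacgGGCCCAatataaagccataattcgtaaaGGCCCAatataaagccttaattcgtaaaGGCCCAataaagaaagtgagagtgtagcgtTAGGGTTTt
RPL37B, chr1:19476235-19476484: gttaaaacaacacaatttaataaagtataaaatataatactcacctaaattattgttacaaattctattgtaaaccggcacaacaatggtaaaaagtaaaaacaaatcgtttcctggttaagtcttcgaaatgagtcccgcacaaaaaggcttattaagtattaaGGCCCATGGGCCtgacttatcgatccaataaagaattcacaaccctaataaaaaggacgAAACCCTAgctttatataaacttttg
RPS15AF AT5G59850, chr5:24113618-24113867: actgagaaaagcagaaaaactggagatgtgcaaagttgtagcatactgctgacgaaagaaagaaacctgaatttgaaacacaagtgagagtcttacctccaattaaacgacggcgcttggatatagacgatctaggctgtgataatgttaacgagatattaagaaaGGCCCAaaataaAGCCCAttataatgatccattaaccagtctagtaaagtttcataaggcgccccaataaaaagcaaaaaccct
RPS15AF AT1G07770, chr1:2409792-2410041: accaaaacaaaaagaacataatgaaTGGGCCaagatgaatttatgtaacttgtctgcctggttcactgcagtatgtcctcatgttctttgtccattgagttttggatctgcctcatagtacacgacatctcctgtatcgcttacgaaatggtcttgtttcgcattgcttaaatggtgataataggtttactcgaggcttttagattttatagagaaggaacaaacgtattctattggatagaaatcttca
RPS2D AT3G57490, chr3:21281065-21281314: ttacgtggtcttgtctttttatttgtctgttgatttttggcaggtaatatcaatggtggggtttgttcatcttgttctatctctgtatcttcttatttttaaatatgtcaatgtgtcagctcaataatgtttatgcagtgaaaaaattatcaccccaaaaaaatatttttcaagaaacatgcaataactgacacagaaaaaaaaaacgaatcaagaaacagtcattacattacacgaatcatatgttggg
RPS2C AT2G41840, chr2:17461540-17461789: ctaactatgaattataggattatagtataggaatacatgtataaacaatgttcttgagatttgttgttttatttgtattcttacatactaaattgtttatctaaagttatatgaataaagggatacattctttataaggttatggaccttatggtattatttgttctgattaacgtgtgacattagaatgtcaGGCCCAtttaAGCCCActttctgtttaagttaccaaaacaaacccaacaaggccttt

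As a share of all counts, the 205 genes took up 5.36% ± 0.0779 (SD, n = 3) of the counts of untreated tpst shoots. The share was 4.96% ± 0.107 after 30 min of PSK, 4.38% ± 0.136 after 2 h, 3.85% ± 0.0775 after 5 h and 3.80% ± 0.189 after 11 days. Col-0 shoots had 5.67% ± 0.130. Every PSK-treated shoot library lay below the 3 untreated tpst libraries (5.31% to 5.45%), and every Col-0 library lay above them. In roots untreated tpst had 6.09% ± 0.160, 30 min 6.19% ± 0.213, 2 h 5.94% ± 0.0504, 5 h 5.25% ± 0.235, 11 days 5.10% ± 0.486 and Col-0 5.32% ± 0.219. The root libraries of 30 min and 2 h overlapped with the untreated ones, whereas all libraries of 5 h, 11 days and Col-0 were lower. The ratio of 40S to 60S counts stayed between 0.7407 and 0.7861 over all 36 libraries.

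**Figure D2:**
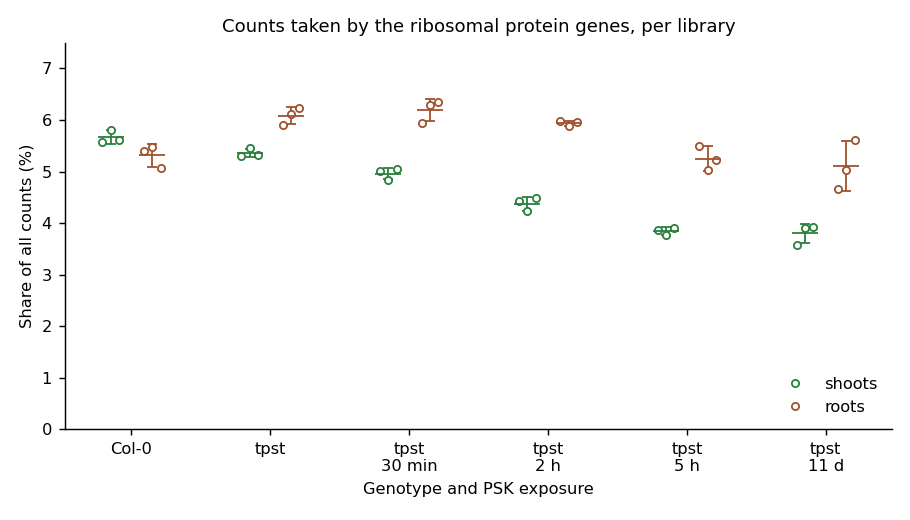
Share of all gene counts taken by the 205 genes in each library (percent, axis from 0), by genotype and PSK exposure; open points are the 3 libraries of a group, dashes and bars are mean and SD, with shoots and roots in separate colours. Shoots run from 5.36% in untreated tpst to 3.85% with 5 h and 3.80% with 11 days of PSK, and roots from 6.09% to 5.25% and 5.10%.

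PSK-treated tpst shoots had less of most ribosomal protein transcripts, by steps that were mostly small. After 30 min, 20 of 189 members were lower than in untreated tpst and 1 was higher (edgeR quasi-likelihood test, adjusted p under 0.05 at any fold). Over all 20811 genes tested, 2.00% were lower and 1.94% were higher. After 2 h, 141 members were lower and 3 higher, where 13.9% of all genes were lower and 12.6% higher. After 5 h, 154 members were lower and 6 higher (28.3% and 27.3% of all genes), and after 11 days 153 were lower and 6 higher (25.5% and 25.4%). The median log2 fold change of the members was -0.13, -0.29, -0.45 and -0.47 at the 4 times, while that of all genes stayed within 0.025 of 0. The 30 min count rests on few libraries: it was 11, 3 or 6 without PSK replicate 1, 2 or 3, and 6 or 2 without untreated replicate 1 or 2. At a fold of at least 2, the cut-off of the study, no member passed in edgeR after 30 min (0.389% of all genes were higher and 0.274% lower by as much). After 2 h 5 members were lower and 1 higher (2.35% and 1.94%), after 5 h 22 were lower and 3 higher (9.30% and 7.72%), and after 11 days 24 were lower and 2 higher (7.76% and 6.99%). The 1 higher after 2 h was AT3G61111, with 0.129, 0 and 0 CPM in untreated tpst shoots. It passed the filter on low counts through the groups where it was higher, so that its call is no result. The same gene is among those higher after 5 h and 11 days, at any fold and at a fold of 2. These calls are no result either. The other gene higher by a fold of 2 after 11 days was AT2G28815, described as mitochondrial. Most members called lower thus stayed below that cut-off.

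**Figure D3:**
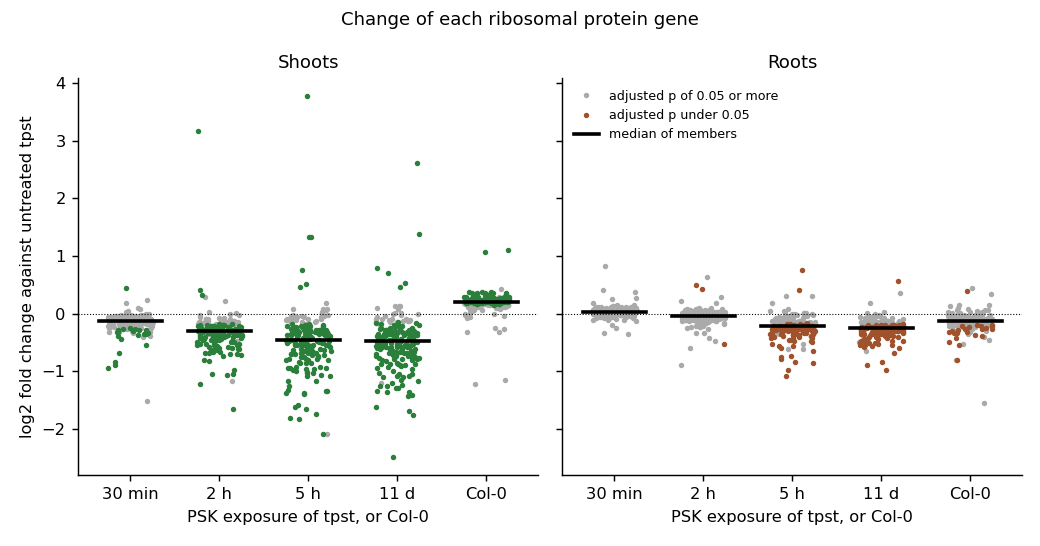
log2 fold change of each tested member against untreated tpst (vertical axis) for the 4 PSK exposures and for Col-0 (horizontal axis), shoots and roots in separate panels; each dot is 1 gene, coloured where the adjusted p is under 0.05, and the black line is the median of the members. In the order of the axis the shoot medians are -0.13, -0.29, -0.45, -0.47 and 0.20, and the root medians are 0.04, -0.04, -0.21, -0.25 and -0.13.

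Both subunits took part. Of 88 tested 40S members 72 were lower and 2 higher at 5 h in shoots (median -0.46), and of 101 tested 60S members 82 were lower and 4 higher (median -0.42). Between the 30 min and the 5 h shoots, 129 members fell and 7 rose, with a median of -0.32, where 23.4% of all genes fell and 22.7% rose. Of these, 9 fell and 2 rose by a fold of at least 2 (5.41% and 5.26% of all genes). The 2 that rose were AT2G28815 and AT3G61111, the latter again no result. Shoots of tpst grown for 11 days in PSK had 175 members lower and 4 higher than Col-0 shoots, with a median of -0.68. Of all genes 29.0% were lower and 28.7% higher. By a fold of at least 2, 37 members were lower and 1 higher (9.25% and 10.6% of all genes). The 1 higher by that fold was AT3G61111, so that its call is no result.

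The most abundant genes fell by different amounts. RPS8A (AT5G20290), the leading 40S gene, had 1242, 1245 and 1247 CPM in untreated tpst shoots and 986, 922 and 973 CPM after 5 h, with no overlap. Its log2 fold change was -0.37 ± 0.0566 (SE, adjusted p = 2.7e-05 in edgeR, n = 3 against 3). RPL19A (AT1G02780), of the 60S subunit, had 1037, 1126 and 1097 CPM before and 936, 835 and 898 CPM after 5 h, also without overlap (-0.29 ± 0.0602, adjusted p = 0.000607 in edgeR). ARP1 (AT1G43170), the main gene for L3, a 60S protein at the peptidyl transferase centre, fell more, from 1095, 1137 and 1112 CPM to 686, 670.2 and 709 CPM (-0.70 ± 0.0549, adjusted p = 1.68e-08 in edgeR). All 3 stayed well short of a fold of 2. RPL37B (AT1G52300), named here after its values were seen, with a log2 fold change of -0.15, did not pass the test (adjusted p = 0.0804 in edgeR).

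Protein S6, the 40S protein phosphorylated by S6 kinase downstream of TOR, is encoded by RPS6A and RPS6B. RPS6A (AT4G31700) had 669, 693 and 739 CPM in untreated shoots and 399, 415 and 412 CPM after 5 h (-0.78 ± 0.0645, adjusted p = 3.03e-08 in edgeR). RPS6B (AT5G10360) went from 560.0, 580.0 and 587 CPM to 419.7, 394 and 409 CPM (-0.50 ± 0.0656, adjusted p = 6.09e-06 in edgeR). Neither gene's groups overlapped. The transcript of the kinase gene ATPK1 (AT3G08730) rose in the same shoots, from 59.98 ± 0.348 to 109.1 ± 3.788 CPM (SD, n = 3; log2 fold change 0.86, adjusted p = 4.287e-08 in edgeR).

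The 22 members that fell by at least a fold of 2 after 5 h were all paralogs that do not lead their family. Paralogs were ranked within a family by CPM in Col-0, that is by counts and not per length; the Col-0 libraries take no part in the comparisons of PSK with untreated tpst. The leading paralog was tested in 67 families with more than 1 tested gene, and 57 of these 67 fell, 0 of them by a fold of 2 in edgeR (median -0.39, lowest -0.85). Of the 109 other paralogs 88 fell, 22 of them by at least a fold of 2 (median -0.55). Among the 28 that made up under 10% of their family's counts, 22 fell and 14 did so by at least a fold of 2 (median -1.02). After 11 days the medians were -0.40, -0.57 and -0.96 for these sets, with 0, 24 and 13 genes lower by at least a fold of 2. Within families the order was mixed. At 5 h, 67 of the 109 other paralogs had a lower log2 fold change than the leading paralog of their family, and 42 did not. After 11 days these counts were 72 and 37. Level and rank go together here: by level in Col-0, the median change at 5 h was -1.02 under 20 CPM per kb, -0.71 from 20 to 100, -0.42 from 100 to 300 and -0.38 above. In the same order the shoot medians were -0.94, -0.77, -0.54 and -0.39 after 11 days. At 2 h they were -0.28, -0.46, -0.30 and -0.27, without that gradient. Root medians were -0.35, -0.315, -0.23 and -0.19 at 5 h. After 11 days the lowest bin of roots moved least, with -0.12, -0.37, -0.27 and -0.23.

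**Figure D4:**
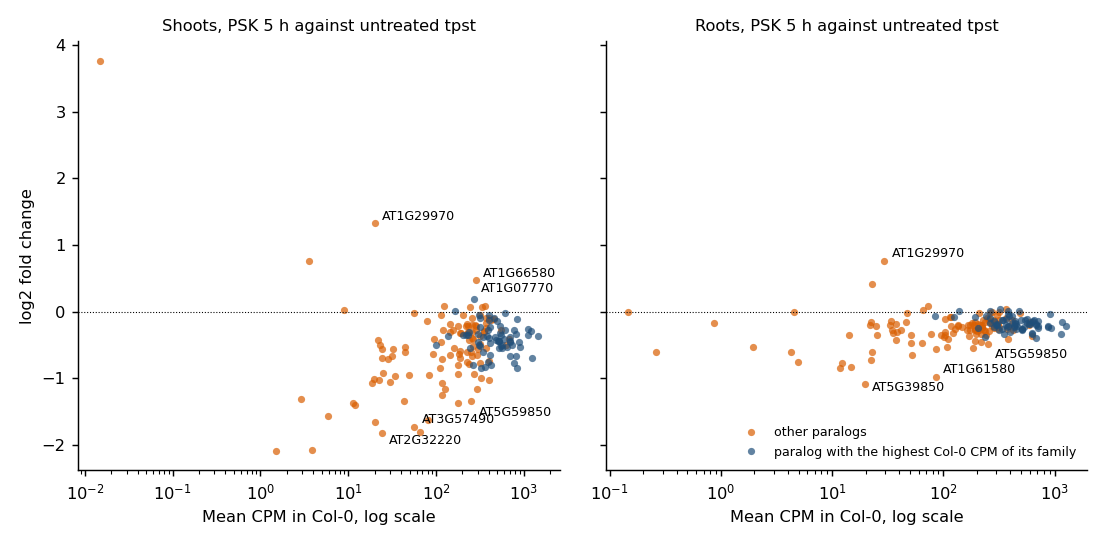
log2 fold change after 5 h of PSK against untreated tpst (vertical axis) over the mean CPM in Col-0 (horizontal log axis) for paralogs in shoots and in roots, each dot 1 gene, with some gene IDs written beside their dots; blue marks the paralog with the highest CPM of its family in Col-0 and orange the other paralogs. The highest dot in shoots is AT3G61111, a gene near 0. In shoots the leading paralogs lie between -0.85 and 0.19, and the 22 members called lower by a fold of at least 2 are other paralogs.

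Small-subunit paralogs gave several of the largest changes. S2 lies near the mRNA entry of the 40S subunit. Its minor gene RPS2D (AT3G57490) had 60.6, 55.8 and 53.1 CPM in untreated tpst shoots, 42.9, 36.4 and 37.2 after 30 min, 30.4, 26.7 and 29.5 after 2 h, and 16.9, 17.3 and 16.7 after 5 h. The 3 PSK groups did not overlap with the untreated libraries or with each other. The log2 fold change was -0.54 ± 0.102 at 30 min (adjusted p = 0.0073 in edgeR) and -1.74 ± 0.107 at 5 h (adjusted p = 1.24e-09 in edgeR). RPS2C (AT2G41840), the major S2 gene, had 719.8, 724 and 738 CPM untreated and 688, 652 and 672 CPM after 5 h, a log2 fold change of -0.12 that did not pass the test (adjusted p = 0.075 in edgeR). Of the 2 promoters printed above, that of RPS2C holds 2 site II matches and that of RPS2D neither word.

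S15a, a 40S protein, has 2 genes of like level that parted. AT5G59850 and AT1G07770 carry the same symbol, RPS15AF, and the same description, so reads of near-identical stretches could be split between them by the counting. AT5G59850 had 226, 232 and 223 CPM in untreated tpst shoots and 186, 182 and 194 after 30 min, 144, 136 and 153 after 2 h, 88.7, 84.6 and 94.6 after 5 h, and 83.6, 91.8 and 103 after 11 days. AT1G07770 had 231, 248 and 237 CPM untreated and 234, 213 and 246 after 30 min, 236, 216 and 229 after 2 h, 304, 263 and 248 after 5 h, and 359, 344 and 289 after 11 days. AT5G59850 fell by steps that separate every exposure up to 5 h, while AT1G07770 overlapped with its untreated libraries at 30 min and lay above them at 11 days. Their log2 fold changes were -1.35 ± 0.0743 and 0.19 ± 0.0849 at 5 h (adjusted p = 4.9e-10 and 0.0708 in edgeR) and -1.29 ± 0.0742 and 0.47 ± 0.085 at 11 days (adjusted p = 7.89e-10 and 0.000199 in edgeR). As a share of this pair, AT5G59850 went from 48.75% ± 0.592 to 24.84% ± 2.534 at 5 h (SD, n = 3), with groups that did not overlap; the exact permutation test gave p = 0.1, the smallest that 3 against 3 libraries allow. In Col-0 shoots the share was 48.64% ± 1.235. AT5G59850 overlaps the gene AT5G59860 on the other strand by 156 bases, but that gene had 405 counts in all libraries against 196574.

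Other 40S paralogs fell as well. RPS11B (AT4G30800) had 16.1, 17.96 and 16.9 CPM untreated and 5.21, 5.36 and 5.56 CPM after 5 h in shoots (-1.66 ± 0.119, adjusted p = 6.01e-09 in edgeR). RPS8B (AT5G59240), the minor S8 gene beside RPS8A, went from 5.85, 6.19 and 6.58 CPM to 1.57, 2.46 and 2.19 CPM (-1.57 ± 0.248, adjusted p = 4.01e-05 in edgeR). RPSAb (AT3G04770), for SA on the solvent side of the 40S subunit, fell most at 30 min among called members of at least 5 CPM: it had 23.6, 18.1 and 16.96 CPM untreated and 13.4, 9.47 and 9.89 CPM after 30 min (-0.84 ± 0.148, adjusted p = 0.00487 in edgeR), and stood at 11.2, 8.02 and 9.97 CPM after 5 h. It overlaps AT3G04780 on its own strand by 132 bases, so some counts could belong to that gene. RPS4D (AT5G58420), a 40S gene of higher level, fell from 355, 373 and 369 CPM to 179.6, 174 and 186 CPM at 5 h (-1.02 ± 0.0764, adjusted p = 9.25e-09 in edgeR). None of these groups overlapped. The lowest values at 5 h were those of RPS2B genes: -2.09 for AT1G59359, which did not pass (adjusted p = 0.109 in edgeR), and -2.08 for AT1G58684 (adjusted p = 0.00842 in edgeR). The latter had 7.40, 3.29 and 14.9 CPM untreated and 1.57, 1.76 and 2.72 CPM after 5 h. The RPS2B genes, AT1G58983 among them, are near-identical and may exchange reads, and without untreated replicate 3 the value of AT1G58684 was -1.39 with an adjusted p of 0.0749 in edgeR.

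On the large subunit, L23a lies at the exit of the protein tunnel. Its second gene RPL23AB (AT3G55280) had 153, 156 and 147 CPM in untreated shoots, 122, 114 and 124 after 30 min, 86.5, 81.8 and 94.1 after 2 h, 57.8, 55.0 and 62.3 after 5 h, and 54.7, 58.0 and 65.9 after 11 days. Each exposure up to 5 h lay apart from the one before, and 5 h and 11 days overlapped (log2 fold change at 5 h -1.38 ± 0.077, adjusted p = 5.33e-10 in edgeR). RPL23AA (AT2G39460) fell from 409.6, 427 and 424 CPM to 349.6, 283 and 309 CPM (-0.42 ± 0.0709, adjusted p = 7.97e-05 in edgeR). The share of RPL23AB in the pair went from 26.55% ± 0.740 to 15.75% ± 1.377 at 5 h, with no overlap (exact permutation test p = 0.1, the smallest possible).

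L27 and L3 each have a minor gene that fell further. RPL27A (AT2G32220) had 25.9, 25.6 and 23.2 CPM untreated and 6.08, 6.96 and 7.98 CPM after 5 h (-1.82 ± 0.149, adjusted p = 2.44e-08 in edgeR). ARP2 (AT1G61580), the second L3 gene beside ARP1, went from 56.6, 53.0 and 51.9 CPM to 13.7, 14.8 and 17.7 CPM (-1.80 ± 0.13, adjusted p = 6.12e-09 in edgeR). An L29 gene without a symbol, AT3G06680, had 65.2, 66.5 and 60.6 CPM untreated and 21.5, 18.5 and 22.4 CPM after 5 h (-1.62 ± 0.0998, adjusted p = 1.2e-09 in edgeR). For RPL27A, ARP2 and AT3G06680 the untreated and 5 h groups were far apart. RPL35AA (AT1G07070) and RPL26B (AT5G67510) fell by 1.34 and 1.26 on the log2 scale at 5 h, and RPL19B (AT3G16780), the second L19 gene, by 0.94 at 5 h and by 1.23 at 11 days.

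**Figure D5:**
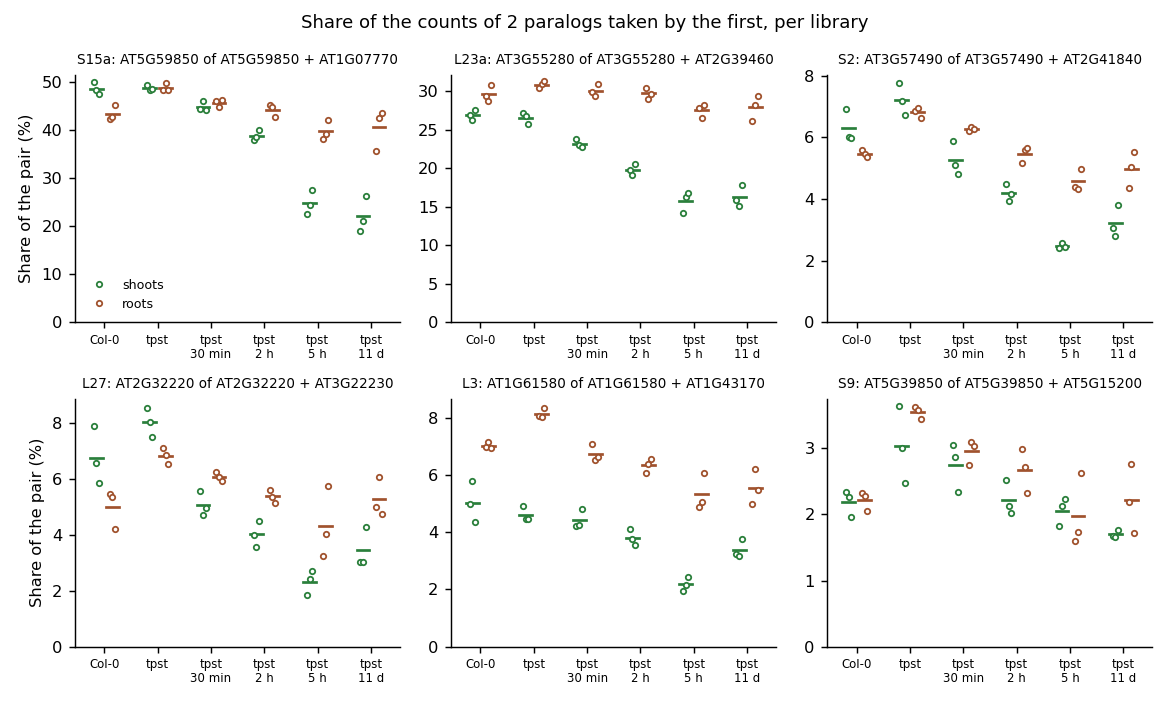
Share of the summed counts of 2 paralogs taken by the first (percent, each axis from 0) in the 6 groups, for S15a, L23a, S2, L27, L3 and S9; open points are libraries and lines are group means, with shoots and roots in separate colours. In shoots S15a goes from 48.75% in untreated tpst to 24.84% at 5 h, L23a from 26.55% to 15.75% and S2 from 7.21% to 2.47%.

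Members that rose in shoots were 6 at 5 h. RPL18AA (AT1G29970), annotated as L18a, had 14.97, 15.3 and 18.8 CPM untreated and 46.7, 42.0 and 34.6 CPM after 5 h, all above the untreated range (1.32 ± 0.121, adjusted p = 8.92e-08 in edgeR). It overlaps AT1G29965, a member with the same symbol, by 1112 bases on the same strand, with 204 counts in all libraries against its own 26073. RPL10C (AT1G66580), a gene of L10, a 60S protein needed for subunit joining, had 241, 253 and 283 CPM untreated and 367, 377 and 333 CPM after 5 h (0.47 ± 0.0748, adjusted p = 4.52e-05 in edgeR). At 2 h it had 222, 227 and 239.7 CPM, below the untreated libraries. Its paralog RPL10B (AT1G26910) went the other way, from 25.5, 26.9 and 23.4 CPM to 13.8, 10.9 and 11.7 CPM (-1.06 ± 0.109, adjusted p = 3.58e-07 in edgeR). The other 4 that rose were AT1G57540, AT5G02440, AT2G28815, which is described as mitochondrial, and AT3G61111. AT3G61111 is near 0 throughout, with 0.129, 0 and 0 CPM untreated and 0.507, 0.665 and 0.614 CPM after 5 h. Its fitted fold change depends on the prior count, and its call is no result.

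The counts of the paralogs of a family were also summed. A sum is set mostly by the abundant paralogs, so that its narrower spread beside single genes is no result. In the fit of single genes, 2.00%, 13.9%, 28.3% and 25.5% of all genes were lower in shoots at the 4 exposures. Of 75 families 4, 64, 68 and 71 were lower in shoots at these exposures, and 0 were higher in edgeR. The lowest at 5 h was L27a, with 317.2 CPM against 603.5 untreated (-0.93 ± 0.0661, adjusted p = 5.838e-09 in edgeR), and L12 followed with 247.8 against 426.9 CPM (-0.78 ± 0.0608, adjusted p = 1.448e-08 in edgeR). L18 (601.3 against 620.1 CPM) and L38 (430.3 against 446.2 CPM) had values of -0.04 and -0.05 that did not pass the test. No family reached a fold of 2 against untreated tpst, and 3 did between 11 days of PSK and Col-0, a comparison in which all 75 were lower. Of all single genes 29.0% were lower in that comparison, 9.25% by a fold of at least 2.

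Members with and without the promoter words had close medians. At 5 h in shoots the median log2 fold change was -0.39 for the 26 tested members with both words, -0.45 for the 10 with the telo box alone, -0.43 for the 100 with site II alone and -0.49 for the 53 with neither. The interquartile ranges overlap, from -0.67 to -0.22 for both words and from -0.85 to -0.29 for neither; the classes were not tested against each other. In the S15a pair both promoters hold site II, 2 matches in AT5G59850 and 1 far from the start in AT1G07770.

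In roots the change came later and was smaller. After 30 min none of the 191 tested members passed the edgeR test, where 0.880% of the 21358 genes tested were lower and 0.295% higher. At an unadjusted p under 0.05 in edgeR 1 member was higher and 1 lower. The share of all genes at that unadjusted p is not given. DESeq2 called 1 member. After 2 h, 1 member was lower and 2 were higher (2.61% and 1.87% of all genes), and these calls were 0 or 1 with any single library left out. After 5 h, 101 members were lower and 2 higher (9.94% and 9.37%), and after 11 days 124 were lower and 1 higher (8.77% and 7.30%). The member medians at these 4 times were 0.04, -0.04, -0.21 and -0.25. The root counts depended on single libraries: the 103 calls at 5 h became 41 without PSK replicate 2, 66 without untreated replicate 2 and 56 without untreated replicate 3, the library with 1480 CPM of photosynthesis transcripts, and the 125 calls at 11 days became 58 without PSK replicate 1 and 71 without untreated replicate 3. The medians stayed negative in each of these fits. Fitting only the 6 libraries of a comparison gave 44 calls at 5 h and 18 at 11 days. Summed families gave 0, 0, 50 and 59 lower and 0 higher. Between the 30 min and the 5 h roots 112 members fell and 1 rose (4.71% and 4.65% of all genes), 0 by a fold of 2 (0.262% and 0.726%); this count of 113 became 24 or 69 without 30 min replicate 2 or 3 and 23 without 5 h replicate 2. Against Col-0 roots, 37 members were lower and 1 higher in the 11 day roots (14.9% and 13.2% of all genes; 0 by a fold of 2, against 4.28% and 3.67%), a count of 38 that became 22 or 13 without Col-0 replicate 1 or 2 and 13, 25 or 110 without PSK replicate 1, 2 or 3.

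Few root members changed by much. By a fold of at least 2, 0 members passed in edgeR at 30 min (0.0843% of all genes were higher and 0.393% lower), 2 h (0.398% and 1.01%), 11 days (1.14% and 0.862%) and for Col-0 (3.67% and 3.12%). RPS9C (AT5G39850), a gene of S9, a 40S protein at the mRNA entry, was the 1 member past it at 5 h, where 1.40% of all genes were higher and 1.09% lower. It had 34.2, 35.01 and 34.2 CPM untreated and 13.7, 13.7 and 21.5 CPM after 5 h (-1.08 ± 0.168, adjusted p = 0.00071 in edgeR). Its share beside RPS9B, whose promoter is printed above, went from 3.55% ± 0.0966 to 1.98% ± 0.560, without overlap (exact permutation test p = 0.1, the smallest possible). ARP2 (AT1G61580) had 104, 114 and 112 CPM untreated, 72.0, 74.5 and 82.2 after 2 h and 51.7, 49.5 and 66.1 after 5 h, separate at both times (-0.53 ± 0.115, adjusted p = 0.0187 at 2 h, and -0.98 ± 0.117, adjusted p = 0.000111 at 5 h, both in edgeR). The 2 h value lost its call without PSK replicate 1 or 2 or untreated replicate 2 or 3. RPL18AA rose in roots as well, from 22.5, 20.1 and 24.7 CPM to 42.8, 41.2 and 30.2 CPM at 5 h (0.76 ± 0.126, adjusted p = 0.00109 in edgeR).

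The response of shoots and roots was tested directly, as the log2 fold change in roots minus that in shoots in a fit of all 36 libraries. Shoots and roots were cut from the same seedlings, but this fit did not pair their libraries. At 30 min no member of 193 passed in edgeR, and the median difference was 0.16. Of all 22303 genes, 0.00448% were called higher and 0.00897% lower. At an unadjusted p under 0.05 in edgeR, 53 members had a positive and 0 a negative difference. The share of all genes at that unadjusted p is not given, so these 53 are not read as a result about the members. At 2 h, 52 members had a less negative or more positive change in roots and 0 the reverse (2.43% and 2.40% of all genes, median 0.25). This count was 24 without shoot PSK replicate 2, 33 or 31 without root PSK replicate 1 or 3 and 31 without shoot untreated replicate 2. At 5 h the counts were 69 and 4 (12.3% and 10.9%, median 0.22), and at 11 days 69 and 5 (10.6% and 9.39%, median 0.20). The 4 with the reverse difference at 5 h were RPL18AA (AT1G29970, -0.59), RPL10C (AT1G66580, -0.55), AT3G61111 and RPS15E (AT5G43640), and the 5 at 11 days were RPS15AF (AT1G07770, -0.54), RPL36B (AT3G53740, -0.28), AT5G02440 (-0.89), AT2G28815 (-1.41) and again RPS15E. RPS15E and AT3G61111 are near 0 in these libraries, and RPS15E passed the filter in neither tissue alone and AT3G61111 only in shoots, so their differences are no result.

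RPL23AB is the member with the smallest p of this test at 2 h and at 11 days. In roots it had 214, 225 and 229 CPM untreated, 208, 192 and 202 after 2 h and 168, 149.7 and 173 after 5 h. The root values after 2 h lay just below the untreated ones, where shoots had fallen by 0.80 on the log2 scale. The difference was 0.63 ± 0.112 at 2 h (adjusted p = 0.000958 in edgeR) and 0.91 ± 0.113 at 5 h. RPS4D (AT5G58420) had 472, 471 and 504 CPM in untreated roots and 414, 385 and 399 CPM after 5 h, a difference from shoots of 0.73 ± 0.111. In the S15a pair, AT5G59850 had 283, 295 and 298 CPM in untreated roots and 205, 194 and 226 after 5 h, and AT1G07770 had 304, 297 and 318 and then 334, 301 and 313. The share of AT5G59850 thus went from 48.80% ± 0.846 to 39.74% ± 2.024 in roots, and its change differed from that in shoots by 0.84 ± 0.124. RPL10C is 1 of the 4 members with the reverse difference at 5 h (-0.55 ± 0.1002, adjusted p = 0.000198 in edgeR): it rose in shoots and its root value of -0.06 did not pass (adjusted p = 0.597 in edgeR).

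Without PSK, Col-0 was compared with tpst in each tissue. In shoots 96 members were higher in Col-0 than in untreated tpst and 0 were lower (13.0% and 11.8% of all genes; 1 member was lower at an unadjusted p under 0.05 in edgeR), with a median of 0.20. By a fold of at least 2, AT5G02440 and the mitochondrial AT2G28815 were higher (1.34% of all genes; 4.36% were lower). The count fell to between 18 and 62 when any 1 of the 6 libraries was left out: 42, 18 and 39 without Col-0 replicate 1, 2 and 3, and 46, 62 and 55 without the untreated ones. Scaling by library totals alone gave 17 higher and 2 lower, with a member median of 0.08 beside an all-gene median of -0.11, so that relative to all genes the members remained higher. RPL36C (AT5G02450), of the 60S subunit, had 367, 397 and 376 CPM in Col-0 and 295, 309.5 and 278 in tpst (0.37 ± 0.0681, adjusted p = 0.000762 in edgeR), and RPS14C (AT3G52580), of the 40S subunit, had 135, 148 and 149 against 104, 115 and 115 (0.37 ± 0.0772, adjusted p = 0.00204 in edgeR). Neither pair of groups overlapped.

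In roots 22 members were lower in Col-0 and 1 was higher (10.6% and 12.2% of all genes, median -0.13), a count of 23 that became 10 or 5 without Col-0 replicate 2 or 3 and 15, 9 or 11 without an untreated replicate. The share of members that was lower is close to that of all genes. Scaling by library totals alone gave 79 lower and 0 higher, with a member median of -0.20 beside an all-gene median of -0.09, and fitting only the 6 libraries gave 41 lower and 1 higher. RPS9C was the lowest, with 20.8, 20.4 and 17.9 CPM in Col-0 roots against the 34.2 to 35.01 CPM of untreated tpst (-0.81 ± 0.167, adjusted p = 0.00295 in edgeR). The difference between tissues was called for 137 members, all with a lower value in roots (9.80% of all genes were lower and 7.95% higher, median -0.36), and for 90 without root Col-0 replicate 3. By library totals alone it was called for 83 members, again all lower in roots. In Col-0 itself, 160 members had lower and 6 higher CPM in roots than in shoots (35.9% and 35.4% of all genes, median -0.49). That direction rests on the scaling of both tissues together: by library totals alone 56 members were lower and 33 higher, with a member median of -0.05 while the median of all genes was 0.44. Relative to all genes the members were lower in roots under both scalings. RPL13AC (AT4G13170) had 183, 188 and 174 CPM in Col-0 shoots and 71.1, 70.0 and 59.7 in roots, and RPS10A (AT4G25740) had 368, 386 and 332 against 144, 149 and 126, when all libraries were scaled together. These 2 genes differed most clearly, by -1.44 ± 0.0682 and -1.37 ± 0.0748.

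Genes around the ribosome were counted from lists. RACK1, a scaffold protein on the 40S subunit, has 3 genes, all lower at 5 h in shoots: RACK1C (AT3G18130) at 55.81 ± 2.352 CPM against 206.4 ± 4.391 untreated, RACK1B (AT1G48630) at 82.82 ± 1.042 against 218.1 ± 6.960, and the major gene RACK1A (AT1G18080) at 570.0 ± 22.88 against 727.5 ± 9.429 (SD, n = 3). The log2 fold changes were -1.89, -1.40 and -0.35, so that in this family the minor genes moved further. Of 32 nucleolar genes of ribosome assembly, 19, 29, 28 and 29 were lower in shoots at the 4 exposures in order of length, and 24 were lower in roots after 5 h. Their median in shoots at 5 h was -0.84, and fibrillarin gene AT4G25630, listed as MED36A, went from 188.0 ± 3.903 to 32.75 ± 4.222 CPM. Elongation factors (7 of 9 lower, median -0.30) and acidic stalk proteins (6 of 11 lower, 1 higher) fell at 5 h in shoots, while initiation factors were split (19 lower, 12 higher of 49). Of 55 tested organellar ribosomal proteins 16 were lower and 11 higher at 5 h, and 11 were lower and 27 higher at 11 days. None of 9 TOR pathway genes was lower at 5 h, and 3 were higher. Over all genes tested in shoots, 28.3% were lower and 27.3% higher at 5 h, and 25.5% were lower and 25.4% higher at 11 days. The organellar genes lower at 5 h and the TOR genes higher thus lay near the share of all genes. For the shorter exposures, 2.00% of all genes tested in shoots were lower at 30 min and 13.9% at 2 h. Of all genes tested in roots, 9.94% were lower after 5 h.

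Markers of dividing cells, the replication and cell cycle genes, are given beside these results. In shoots they summed to 301.8 to 318.8 CPM untreated, and with PSK to 235.6 to 251.8 (30 min), 173.4 to 188.3 (2 h), 115.1 to 131.9 (5 h) and 136.6 to 175.7 (11 days). After 5 h 10 of 11 were lower in shoots (median -1.57), against 28.3% of all genes. In roots the markers summed to 452.9 to 501.3 CPM untreated, 410.3 to 429.8 (30 min), 398.5 to 430.8 (2 h), 338.5 to 395.2 (5 h) and 369.7 to 394.8 (11 days). After 5 h 10 of 11 were lower in roots (median -0.41), against 9.94% of all genes. The root sums lay below the untreated ones with no overlap already at 30 min and 2 h, where 0 and 3 members were called. In Col-0 shoots they summed to 283.5 to 299.1 CPM, slightly under untreated tpst, where the ribosomal protein genes were higher. In Col-0 roots they summed to 381.5 to 393.7 CPM, below untreated tpst with no overlap. The median log2 fold change of the members there was -0.13. The 2 clock genes CCA1 and LHY, which peak at dawn, moved as well: they summed to 34.51 to 39.95 CPM in untreated tpst shoots, 51.56 to 70.12 (30 min), 123.7 to 141.2 (2 h), 251.4 to 337.8 (5 h), 393.4 to 406.1 (11 days) and 8.706 to 10.63 in Col-0. In roots the sums were 18.27 to 23.27 CPM untreated, 22.71 to 27.71 (30 min), 46.51 to 63.26 (2 h), 148 to 224.2 (5 h), 202 to 230.6 (11 days) and 16.66 to 18.03 in Col-0. The 2 h roots, where 3 members were called, thus already lay above the untreated ones with no overlap. The hour of collection of each group is not given in the sources used here. Photosynthesis genes in shoots summed to 28480 to 30530 CPM untreated, 31820 to 37770 (5 h), 41870 to 48090 (11 days) and 40810 to 41290 in Col-0, the last 3 all above the untreated libraries. Root markers in shoots summed to 8.308 to 15.11 CPM untreated and to 5.478 to 6.407 (5 h), 3.812 to 4.672 (11 days) and 2.539 to 6.193 in Col-0, all below the untreated libraries. The part of dividing cells, of photosynthetic and root tissue and of the clock in the results was not tested.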

How the data were processed

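The deposited table holds raw counts per gene for 36 libraries; the authors aligned poly(A) RNA-seq reads to TAIR10 with HISAT2 2.0.5 and counted them with featureCounts 1.5.0-p3. Strandedness of the counting is not given in the sources used here, so antisense and overlapping genes (56 members overlap another gene) and near-identical paralogs may share reads. The deposited FPKM table was not used here. Genes passing filterByExpr (minimum count 10) were tested with the quasi-likelihood test of edgeR 4.0.16 in R 4.3.3, with TMM scaling and 6 groups over the 18 libraries of a tissue, or all 36 for tissue differences; p-values were Benjamini-Hochberg adjusted over all genes tested. In the fit of all 36, shoot and root libraries of the same plants were not paired. Standard errors follow from each F statistic and its fold change. Levels are CPM from the same fit. DESeq2 1.42.0 was an alternative. Named members are, per comparison with untreated tpst, up to 5 highest and 5 lowest called members with a mean of at least 5 CPM whose groups do not overlap; all past a fold of 2; the 5 highest and lowest levels per tissue; the 5 of smallest p for tissue differences; their paralogs; and up to 4 genes of smallest p in each other list. RPS6A, RPS6B, RPL37B and the CCA1 and LHY sums were added after their values were seen. Members and lists were chosen with earlier results of these data known. The pipeline was tested on simulated counts. Figures were drawn with matplotlib 3.10.9 in Python 3.11.15.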

Additional observations from a re-analysis of the deposited data

Results flagged for a closer look

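The tests of a difference between tissues gave the results to look at again, each as the log2 fold change against untreated tpst in roots minus that in shoots. Members whose change differed numbered 52 after 2 h of PSK, 73 after 5 h, 74 after 11 days and 137 for Col-0. After 2 h the 5 members of smallest p were RPL23AB (AT3G55280, 0.63), RPL8C (AT4G36130, 0.47), RPS25B (AT2G21580, 0.48), RPS19C (AT5G61170, 0.49) and RPS23A (AT3G09680, 1.54). The last rests on low levels, 3.21 to 4.08 CPM in untreated shoots and 0.995 to 1.34 CPM after 2 h. After 5 h they were AT3G06680 (1.13), RPL23AB (0.91), RPS2D (AT3G57490, 1.06), RPS15AF (AT5G59850, 0.84) and RPS4D (AT5G58420, 0.73). After 11 days they were RPL23AB (0.87), RPL19B (AT3G16780, 0.81), RPS12C (AT2G32060, 0.68), RPL10B (AT1G26910, 0.94) and AT3G06680 (0.87). For Col-0 the values were negative: AT3G06680 (-0.79), RPL19B (-0.62), RPL12C (AT5G60670, -0.46), RPL32A (AT4G18100, -0.51) and RPL13AC (AT4G13170, -0.51). The 3 PSK times and Col-0 share the untreated libraries of each tissue, so that their values are not independent of each other. What sets the tissues apart was not tested.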

How the results depend on the processing

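Counts of members called are given here as both directions together. The share of all genes called under each other setting is not given beside them. A shift in a count is therefore no result about the members alone. At a fold of at least 2 they were, for shoots, 0 (30 min), 6 (2 h), 25 (5 h), 26 (11 days), 2 for Col-0, 11 for 5 h against 30 min and 38 for 11 days against Col-0; for roots, 0 (2 h), 1 (5 h), 0 (11 days), 0 for Col-0, 0 for 5 h against 30 min and 0 for 11 days against Col-0; for tissue differences, 1 (2 h), 6 (5 h), 4 (11 days) and 1 for Col-0; and 7 for Col-0 roots against shoots. For the tissue tests the share of all genes past this fold is not given, so those counts are not read as a result about the members. They include RPS15E at 5 h and 11 days and AT3G61111 at 5 h, genes near 0 whose differences are no result. The shoot counts at 2 h, 5 h and 11 days also include AT3G61111. At any fold, fitting only the 6 libraries of a comparison gave 12 for shoots at 30 min. For roots it gave 1, 9, 44, 18 and 42 at 30 min, 2 h, 5 h, 11 days and for Col-0. DESeq2 gave 35 for shoots and 1 for roots at 30 min. For Col-0, library totals alone gave 19 in shoots and 79 in roots, and no filter on low counts gave 46 in shoots. Library totals for both tissues together, chosen after the data were seen, gave 83 for the Col-0 tissue difference and 89 for Col-0 roots against shoots. Summed families, of which there are 75, gave 4, 64, 68, 71 and 55 in shoots (30 min, 2 h, 5 h, 11 days, Col-0) and 0, 50, 59 and 6 in roots (2 h, 5 h, 11 days, Col-0).

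With 1 library left out in turn, the counts ran from 2 to 15 for shoots after 30 min, 111 to 131 (2 h), 151 to 168 (5 h), 150 to 165 (11 days), 18 to 62 for Col-0, 118 to 143 for 5 h against 30 min and 172 to 181 for 11 days against Col-0. In roots they ran from 0 to 0 (30 min), 0 to 1 (2 h), 41 to 102 (5 h), 58 to 149 (11 days), 5 to 19 for Col-0, 23 to 116 for 5 h against 30 min and 13 to 110 for 11 days against Col-0. For tissue differences they ran from 0 to 0 (30 min), 24 to 50 (2 h), 59 to 81 (5 h), 53 to 88 (11 days) and 90 to 137 for Col-0, and for Col-0 roots against shoots from 161 to 166. Same-numbered samples of 2 groups deviated together with a correlation over 0.1 in 21 of 45 pairs in shoots and 25 of 45 in roots (medians 0.091 and 0.118), against 6 and 7 of 90 pairs with different numbers (medians -0.028 and -0.047). This is a hint from the data, not the design, that same-numbered samples could share more than a number. What they share is not known, and the main fits did not use the number. With the replicate number as a block the counts were 25, 143, 162, 158 and 99 in shoots and 0, 3, 100, 126 and 24 in roots (30 min, 2 h, 5 h, 11 days, Col-0), and the block moved no count by over 1.5 times.

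Of 1227 values of named members under the other settings, 1215 kept direction and call, 12 lost the call and 0 turned; of 1170 with a library left out, 82 lost the call and 0 turned. The causes of these shifts were not tested. Leaving out the 3 genes described as mitochondrial, an alternative chosen after the data were seen, gave 157 calls in shoots after 5 h. Low members limit precision: AT3G61111 and AT2G28815 had under 4 CPM in all shoot libraries, and AT5G43640 had 147 counts over all 36 libraries.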
